A study of Mus musculus with 6 samples.

Results

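The transcript levels of p53 (Trp53) and of 9 genes around it (Mdm2, Mdm4, Ccng1, Phlda3, Eda2r, Zmat3, Trp53inp1, Aen and Ei24) were examined in AE9a leukemia cells with and without Ddit4. The 10 genes were taken by symbol from a table of counts for 55421 genes, and all 10 were found and had enough counts to be tested. The leukemia was made in C57BL/6 mice by bringing AE9a, a truncated splice form of the t(8;21) oncoprotein, with a retrovirus into c-Kit+ bone marrow stem and progenitor cells. Donor mice were either wild type for Ddit4 (group AE9a-Ddit4+/+, 3 libraries) or carried a deletion of it (group AE9a-Ddit4-/-, 3 libraries), and GFP-positive cells were transplanted into irradiated recipients, in which leukemia arose. The groups are called wild type and knockout here. Both carry AE9a and GFP, the Ddit4 deletion was present in the donor animals, and the sample labels give no age. The study describes the sequenced cells as coming from the bone marrow of transplanted mice, with 3 per group. Its methods state serial transplantation for AE9a cells used in RNA sequencing, in a passage on the established AE9a model. The transplant generation of these libraries is not given separately. Whether the mice of a group received cells of the same primary leukemia is not stated. In its primary transplantation the study reports fewer knockout recipients with leukemia than there are knockout libraries. If the sequenced cells stem from that transplantation, some knockout libraries share a primary leukemia. The p values therefore measure the spread between these libraries and may not cover that between leukemias.

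p53 is a transcription factor that is kept low by Mdm2, the ubiquitin ligase that marks it for degradation, and by the related protein Mdm4, which binds p53 and holds back its activity. After DNA damage or oncogene signaling p53 is stabilized and switches on target genes, among them Mdm2 itself, so that its inhibitor rises with its activity. Most of this control acts on the p53 protein, which RNA sequencing does not measure. Ddit4 is a stress-induced inhibitor of mTOR signaling and is itself known as a target of p53.

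The binding motif of p53 is a run of 10 bases (3 purines, C, a pair of A or T, G, 3 pyrimidines), and functional elements usually hold a pair of such decamers. The motif is its own reverse complement, so that one scan covers both strands. Promoter windows of 300 bases, from 250 bases before to 50 bases after a RefSeq start on GRCm38.p6, were found for 8 of the 10 members, all except Zmat3 and Trp53inp1. An exact decamer was present in 5 of these 8 (62.5%), against 2582 of all 27025 genes in the promoter table (9.55%). Among the other p53 targets listed further below, 7 of 24 with a window held one (29.2%). The windows of Mdm4, Phlda3 and Eda2r held no exact decamer, which says only that these letters are not in this window. The decamer of Aen lies at -121 to -112 from one RefSeq start and at 11 to 20 from another. The decamers of the 5 members are shown in capitals with the bases around them, to place the motif that names this gene group beside its expression values:
Trp53, chr11:69580274-69580303, plus strand: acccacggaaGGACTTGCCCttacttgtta
Mdm2, chr10:117710925-117710954, minus strand: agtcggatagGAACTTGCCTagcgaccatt
Ccng1, chr11:40755452-40755481, minus strand: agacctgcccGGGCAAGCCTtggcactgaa
Aen, chr7:78895927-78895956, plus strand: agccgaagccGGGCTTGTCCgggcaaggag
Ei24, chr9:36797325-36797354, minus strand: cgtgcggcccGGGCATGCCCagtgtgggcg

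A pair of exact decamers with at most 13 bases between them was present in 0 of the 8 member windows and in 20 of the 27025 genes (0.074%). Among these 20 is Cdkn1a, the gene of the cell cycle inhibitor p21 and the classical target of p53. Its exact decamers begin at -73 and -51 from the RefSeq start whose window holds the pair. The decamer-long stretch directly after the second one differs from the motif in its first base alone and is left in lower case. The sequence of Cdkn1a is shown for comparison, with both exact decamers in capitals:
Cdkn1a, chr17:29090896-29090947, plus strand: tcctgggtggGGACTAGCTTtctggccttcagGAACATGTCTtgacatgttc

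Library totals ran from 62141558 to 72717681 counts. Mitochondrial genes took 5.58%, 7.90% and 5.03% of counts in wild-type and 11.3%, 16.4% and 12.2% in knockout libraries 1, 2 and 3, without overlap. The targeted gene was lower in the knockout but still counted: Ddit4 was at 228, 161 and 341 CPM (counts per 1000000, TMM-scaled) in wild-type libraries 1, 2 and 3, and at 84.9, 77.6 and 85.8 CPM in knockout libraries 1, 2 and 3 (log2 fold change -1.56, edgeR SE 0.28, adjusted p 0.00635). The knockout mean was 34.0% of the wild-type mean. Which bases of the gene are deleted is not given in the sources used here, so that the remaining counts cannot be placed inside or outside the deletion. Whether cells of the recipient mice added to these counts was not tested. On western blot the study found DDIT4 protein to be absent from AE9a-Ddit4-/- leukemia cells. The cells of both groups differed in more than Ddit4. Markers of cell types were called in the edgeR test at an adjusted p below 0.05. Of all genes tested, 19.4% were higher and 10.7% lower at this threshold. Of 5 genes listed as blast and progenitor markers (Kit, Cd34, Ptprc, Runx1t1 and Myb), 5 were higher in AE9a-Ddit4-/- cells (summed 242 to 352 CPM in wild type, 1670 to 2125 CPM in knockout). Ptprc is found on leukocytes in general, and Runx1t1 counts may hold reads of AE9a, so that this list does not measure blasts alone. Of 9 erythroid markers, 9 were lower (6783 to 14806 CPM in wild type, 118 to 607 CPM in knockout). Megakaryocyte (4 of 6), T and NK (7 of 8), B cell (5 of 6), stroma and endothelium (4 of 7) and macrophage markers (3 of 6) were partly higher, 1 megakaryocyte marker was lower, and neutrophil markers (4 of 9) were partly lower. Summed megakaryocyte markers had 101 to 168 CPM in wild type and 2079 to 2747 CPM in knockout. Stroma and endothelium markers had 6.25 to 9.91 CPM in wild type and 158 to 191 CPM in knockout. Neutrophil markers had 6848 to 11201 CPM in wild type and 1828 to 4910 CPM in knockout. The Y-linked gene Ddx3y had 88.1 to 125 CPM in the knockout libraries and at most 0.0773 CPM in the wild-type libraries, so that genotype and sex of the cells cannot be told apart. In bulk RNA, fewer cells of a type and less RNA per cell cannot be told apart either. The part of these differences in the values below was not tested.

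Among the 10 genes, Trp53 was lower and Mdm4 was higher in AE9a-Ddit4-/- cells, while Mdm2 and the 7 other targets did not pass the threshold of an adjusted p below 0.05. Thus 2 of 10 members (20%) were called, against 30.1% of all 18375 genes tested in this comparison. One member was higher, against 19.4% of all genes, and 1 was lower, against 10.7%. The 3 libraries of each genotype did not overlap in 4 members (Mdm4, Ccng1, Zmat3 and Ei24), against 50.1% of all genes. Mdm4 lay wholly above (against 27.9% of all genes) and the other 3 wholly below (against 22.2%). The members were therefore called no more often than genes at large. Their median log2 fold change was -0.45, beside 0.04 over all genes tested and -0.17 over the 8218 genes with an average log2 CPM above 4.

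**Figure D1:**
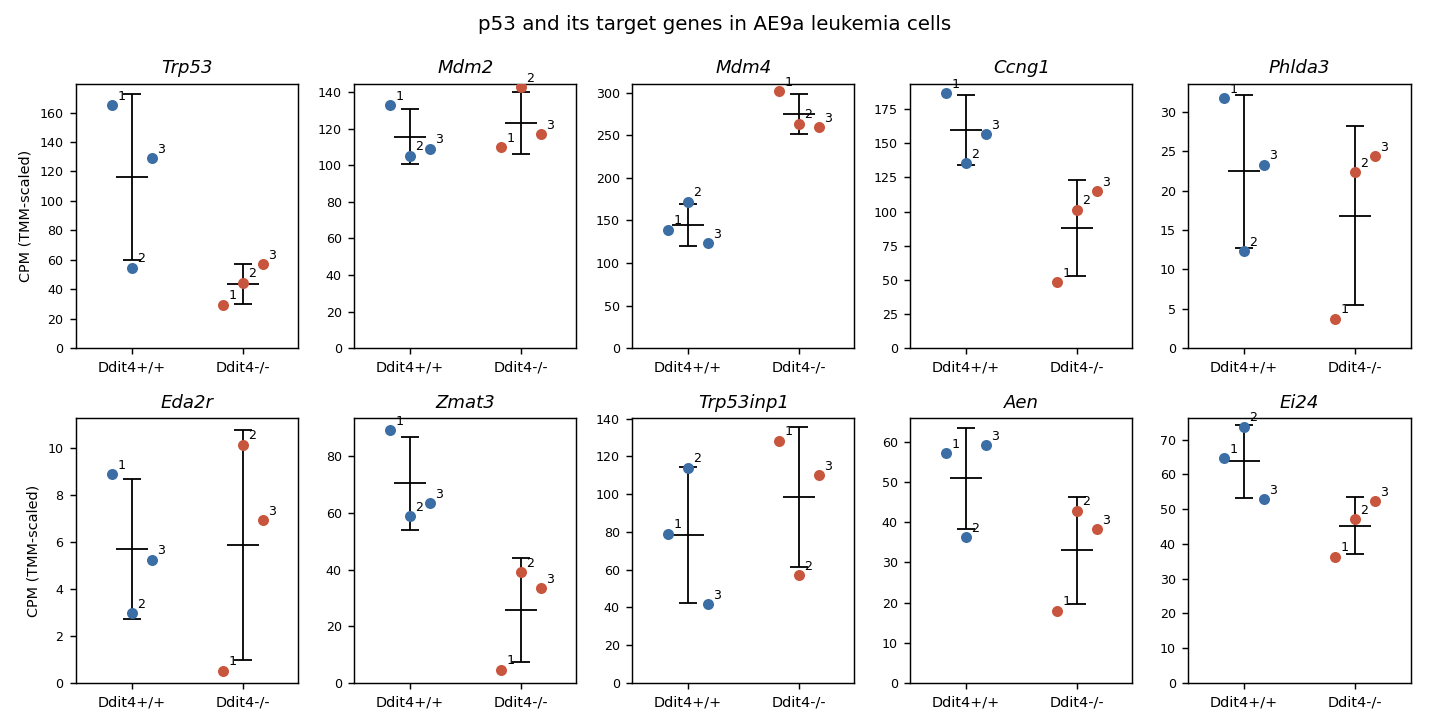
Level of the 10 genes in each library (y axis, TMM-scaled CPM, starting at 0), by genotype of the AE9a leukemia cells (x axis). Points are libraries with their replicate number, and bars show the mean and SD of 3 libraries. Mdm4 lies between 260 and 302 CPM in AE9a-Ddit4-/- and between 123 and 172 CPM in AE9a-Ddit4+/+ libraries, and AE9a-Ddit4-/- library 1 is the lowest of all 6 for 7 members (Trp53, Ccng1, Phlda3, Eda2r, Zmat3, Aen and Ei24).

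Trp53 (ENSMUSG00000059552, protein-coding, GRCm38 chromosome 11, 69580359 to 69591873, plus strand) was at 165, 54.6 and 129 CPM in wild type and at 29.5, 44.6 and 57.0 CPM in knockout. Wild-type library 2 was low for its group and lay just below the highest knockout library, so that the groups overlapped. Mean levels were 116 ± 56.3 and 43.7 ± 13.8 CPM (SD, n = 3 each), a 2.66-fold lower level in knockout (log2 fold change -1.41, edgeR SE 0.43, adjusted p 0.0420). This call was near the threshold. It was lost on leaving out any 1 of 5 libraries, with adjusted p values of 0.129 (wild-type library 1 left out), 0.109 (wild-type library 3), 0.129, 0.0971 and 0.0587 (knockout libraries 1, 2 and 3). It held when wild-type library 2 was left out (adjusted p 0.00735). The direction was the same in all 14 alternatives, with log2 fold changes of -1.75 to -1.07. A pseudogene copy, Trp53-ps, had at most 91 counts in a library, against at least 1840 for Trp53.

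Of 12669 genes with an average log2 CPM above 1 (Trp53 included), those whose pattern over the 6 libraries was most like that of Trp53 were Dhcr7, which encodes the last enzyme of cholesterol synthesis, Taf6, a subunit of the general transcription factor TFIID, and Ccne1, the cyclin E1 of the G1 to S transition. The root mean square differences of their centred log2 profiles from that of Trp53 were 0.122, 0.131 and 0.158. Taf6, for example, had 53.8, 21.6 and 39.6 CPM in wild-type and 11.2, 15.5 and 19.3 CPM in knockout libraries.

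Mdm4 (ENSMUSG00000054387, protein-coding, chromosome 1, 132959484 to 133030561, minus strand) went the other way. It was at 139, 172 and 123 CPM in wild type and at 302, 264 and 260 CPM in knockout, so that every knockout library lay above every wild-type library. The means were 145 ± 25 and 275 ± 23.2 CPM, a 1.90-fold higher level (log2 fold change 0.93, edgeR SE 0.19, adjusted p 0.00987). Mdm4 was the one member past the threshold in all 14 alternatives, with log2 fold changes of 0.82 to 1.07 and adjusted p values from 0.000107 to 0.0470. Genes of chromosome 1 were shifted upward together. The median log2 fold change of its 507 genes with an average log2 CPM above 4 was 0.23, which is 0.40 above that of all such genes, and the part of this shift in the change of Mdm4 was not tested. On the same measure chromosomes 15 and 16 lay 0.56 and 0.42 above all such genes, and chromosome 5 was at -0.27. Phlda3, also on chromosome 1, did not pass, but its wide error (edgeR SE 0.66) leaves a shift of 0.40 undecided for it.

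RefSeq gives 2 starts for Mdm4. The 250 bases before each start are printed because Mdm4 is the member whose rise held throughout, and neither holds an exact decamer:
Mdm4 upstream start, chr1:133030588-133030837, minus strand: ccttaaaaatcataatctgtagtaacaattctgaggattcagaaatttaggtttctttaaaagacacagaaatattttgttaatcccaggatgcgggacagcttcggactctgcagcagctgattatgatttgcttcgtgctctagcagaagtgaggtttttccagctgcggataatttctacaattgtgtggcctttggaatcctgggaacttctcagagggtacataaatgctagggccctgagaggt
Mdm4 downstream start, chr1:133025417-133025666, minus strand: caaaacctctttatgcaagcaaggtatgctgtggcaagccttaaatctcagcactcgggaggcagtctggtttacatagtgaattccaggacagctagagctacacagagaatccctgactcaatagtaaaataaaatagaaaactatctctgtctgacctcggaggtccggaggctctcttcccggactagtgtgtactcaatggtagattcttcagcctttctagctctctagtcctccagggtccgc
Counts per gene do not separate transcripts from the 2 starts.

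Mdm2 (ENSMUSG00000020184, chromosome 10, 117688875 to 117710758, minus strand) had 133, 105 and 109 CPM in wild-type and 110, 143 and 117 CPM in knockout libraries. The groups overlapped, and the means of 116 ± 14.9 and 123 ± 17.1 CPM differed by less than the spread between libraries (log2 fold change 0.09, edgeR SE 0.19, adjusted p 0.744). The level of Mdm2 was next set against those of Trp53 and Mdm4 within each library. The log2 ratio of Mdm2 to Trp53 counts was -0.31, 0.95 and -0.24 in the wild-type libraries and 1.90, 1.68 and 1.04 in the knockout libraries. Every knockout library lay above every wild-type library, with a difference of 1.41 (two-sided exact permutation p = 0.1, the smallest that 3 against 3 libraries allow). The log2 ratio of Mdm2 to Mdm4 was -0.07, -0.71 and -0.17 in wild-type and -1.45, -0.89 and -1.15 in knockout libraries, again without overlap, with a difference of -0.85 (exact permutation p = 0.1). These ratios are taken within a library and do not depend on how libraries were scaled.

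Of the other 7 direct targets 0 passed the threshold in the edgeR test and 1 (Ccng1) had an unadjusted p below 0.05. Their log2 fold changes were negative in 5 (Zmat3, Ccng1, Aen, Ei24 and Phlda3) and positive in Trp53inp1 and Eda2r. Ccng1 (chromosome 11, 40748552 to 40755311, minus strand) encodes cyclin G1, a partner of protein phosphatase 2A in the control of Mdm2. It had 187, 135 and 157 CPM in wild-type and 48.2, 101 and 115 CPM in knockout libraries, without overlap, and its log2 fold change of -0.86 missed the threshold (edgeR SE 0.33, adjusted p 0.0871). Zmat3 (chromosome 3, 32334792 to 32366014, minus strand), an RNA-binding zinc finger protein, had 89.2, 58.8 and 63.5 CPM in wild-type and 4.64, 39.1 and 33.4 CPM in knockout libraries. The groups did not overlap, and knockout library 1 stood far below the others, which widened the error (log2 fold change -1.46, edgeR SE 0.66, adjusted p 0.138). Without AE9a-Ddit4-/- library 1 the change of Zmat3 was smaller but past the threshold (-0.95, edgeR SE 0.26, adjusted p 0.0469).

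Ei24 (chromosome 9, 36779159 to 36797393, minus strand), a membrane protein of the endoplasmic reticulum with a role in autophagy, had 64.6, 73.8 and 52.8 CPM in wild-type and 36.4, 47.1 and 52.3 CPM in knockout libraries. The groups were separated by less than 1 CPM, and the change of -0.49 did not pass (edgeR SE 0.22, adjusted p 0.134). An antisense gene, Gm26787, shares 324 exon bases (6.66%) with Ei24, and reads of the overlap could not be told apart without knowledge of strand. Aen (chromosome 7, 78895854 to 78911209, plus strand), a nuclease of apoptotic cells, had 57.2, 36.3 and 59.2 CPM in wild-type and 17.9, 42.9 and 38.3 CPM in knockout libraries. Knockout libraries 2 and 3 lay within the range of the wild type, and the change of -0.62 did not pass (edgeR SE 0.36, adjusted p 0.232).

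Phlda3 (chromosome 1, 135766119 to 135769136, plus strand), a pleckstrin homology protein that holds back AKT, had 31.7, 12.3 and 23.3 CPM in wild-type and 3.72, 22.3 and 24.4 CPM in knockout libraries. Its groups overlapped, and the log2 fold change of -0.42 (edgeR SE 0.66, adjusted p 0.669) became 0.06 without AE9a-Ddit4-/- library 1. Eda2r (X chromosome, 97333840 to 97377216, minus strand), a receptor for ectodysplasin A2, was the lowest member, with 8.88, 2.96 and 5.24 CPM in wild-type and 0.514, 10.1 and 6.92 CPM in knockout libraries. Its log2 fold change of 0.04 (edgeR SE 0.91, adjusted p 0.978) had no stable sign, was -0.03 with scaling by library totals and ranged from -0.63 to 0.59 when single libraries were left out. The 32 counts of knockout library 1 were above the limit of detection set here at 12 counts. Trp53inp1 (chromosome 4, 11156431 to 11174379, plus strand), a stress-induced nuclear protein that promotes p53 activity and autophagy, had 78.9, 114 and 41.7 CPM in wild-type and 128, 57.0 and 110 CPM in knockout libraries. Its groups overlapped widely (log2 fold change 0.33, edgeR SE 0.42, adjusted p 0.586).

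**Figure D2:**
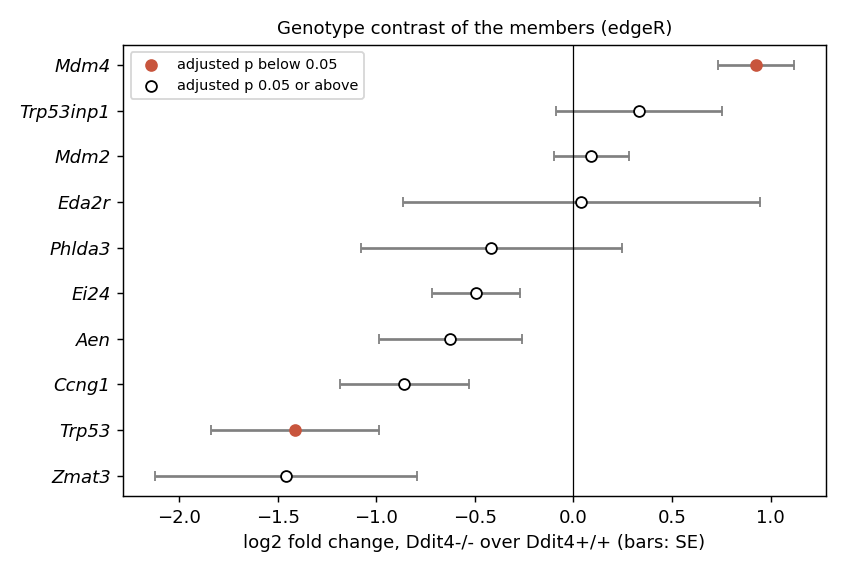
Log2 fold change of each member, AE9a-Ddit4-/- over AE9a-Ddit4+/+ (x axis), from the edgeR fit over all genes. Points are estimates from 3 libraries per genotype, bars are SE, and filled points have an adjusted p below 0.05. Mdm4 (0.93) and Trp53 (-1.41) are filled, and Zmat3 lies farthest down (-1.46) with a wide error (SE 0.66).

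Levels of different genes were compared per kilobase of annotated exon. In wild type the order of mean CPM per kb was Ccng1 (45.5), Trp53 (28.7), Mdm2 (22.8), Phlda3 (14.4), Ei24 (13.1), Trp53inp1 (12.1), Mdm4 (9.78), Aen (8.78), Zmat3 (6.16) and Eda2r (0.966). Only the steps from Mdm2 to Phlda3 and from Zmat3 to Eda2r were without overlap of the 3 libraries, and the other neighbors in this order did not differ beyond their spread. In knockout the order began with Ccng1 (25.1), Mdm2 (24.3), Mdm4 (18.6), Trp53inp1 (15.2) and Trp53 (10.8), followed by Phlda3 (10.8), Ei24 (9.30), Aen (5.69), Zmat3 (2.25) and Eda2r (0.994). Here the steps from Mdm2 to Mdm4 and from Ei24 to Aen were without overlap. Trp53 thus stood at place 2 of 10 in wild type and at place 5 in knockout, and Mdm4 at place 7 and at place 3. The exon length counts all annotated exons of a gene (14.798 kb for Mdm4), so that the level per kb is a lower estimate for genes of which only some transcripts are made.

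The knockout libraries also differed among themselves. AE9a-Ddit4-/- library 1 had lower levels of 8 members than both other knockout libraries, all except Mdm4 and Trp53inp1. Against the mean log2(CPM + 0.5) of libraries 2 and 3, Eda2r was 8.76-fold, Zmat3 7.13-fold, Phlda3 5.64-fold, Ccng1 2.23-fold and Aen 2.23-fold lower. In library 1, 5 of 10 members were thus more than 2-fold below the other knockout libraries, against 4.83% of all genes tested. This pattern was noticed in the data, rests on 1 library and was not tested. The other 3 lower members differed by less, Trp53 by -0.76, Ei24 by -0.44 and Mdm2 by -0.23 on the log2 scale. Mdm4 and Trp53inp1 were higher in library 1, by 0.21 and 0.69.

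**Figure D3:**
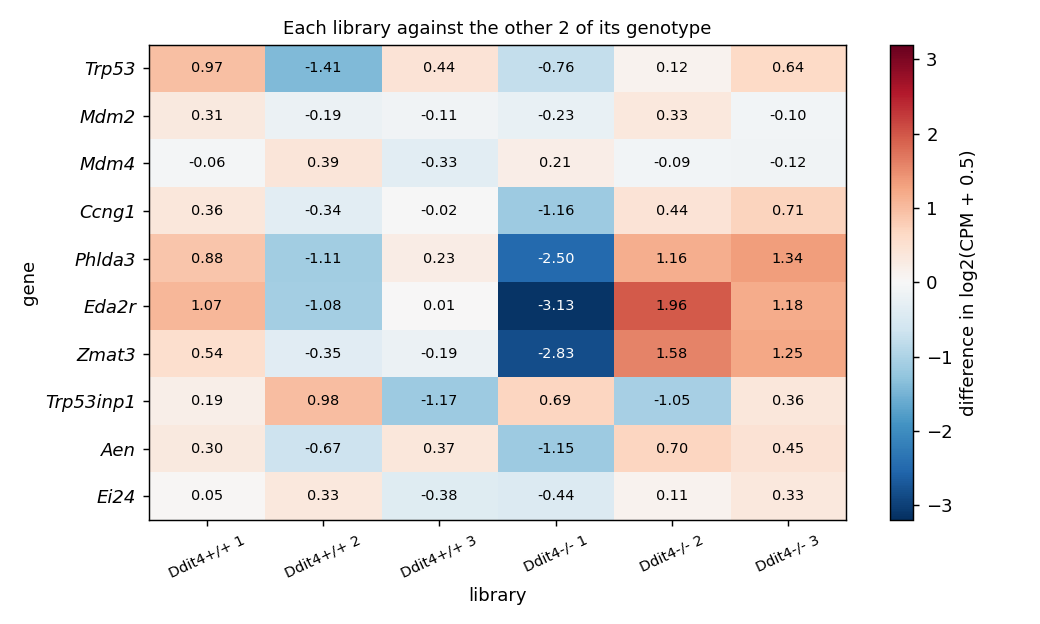
Difference in log2(CPM + 0.5) of each library (x axis) from the mean of the other 2 libraries of its genotype, for the 10 genes (y axis), with blue for lower and red for higher. In AE9a-Ddit4-/- library 1, Eda2r (-3.13), Zmat3 (-2.83) and Phlda3 (-2.50) show the lowest values of the plot, whereas Mdm2 (-0.23) and Mdm4 (0.21) lie near 0.

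Library 1 had 62141558 counts, the smallest total of all libraries, against 66001329 and 72717681 in the other knockout libraries. Mitochondrial genes took 11.3% of its counts, against 16.4% and 12.2%. Its summed erythroid markers stood at 607 CPM, against 118 and 382 CPM. The genes listed as blast and progenitor markers, Ptprc and Runx1t1 included, summed to 2125 CPM, against 1670 and 1836 CPM. The part of these differences in the low levels of these targets was not tested. Without library 1 the median log2 fold change of the members went from -0.45 to -0.13, the same number of members passed the threshold, but Zmat3 took the place of Trp53 beside Mdm4.

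Wild-type library 2 was the other library with several low members. In it Trp53, Phlda3 and Eda2r lay more than 2-fold below the other wild-type libraries, which is 3 of 10 members against 3.79% of all genes tested. On the log2 scale they differed by -1.41, -1.11 and -1.08, while Zmat3 and Ccng1 differed by -0.35 and -0.34. In the remaining 4 libraries 0 or 1 member was more than 2-fold below, namely 0 in wild-type library 1 (against 3.17% of all genes), 1 in wild-type library 3 (3.92%), 1 in knockout library 2 (5.51%) and 0 in knockout library 3 (2.33%).

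The wider pathway was read from 3 lists of genes written from general knowledge. Of 30 other p53 targets, 29 could be tested (Trp73, a relative of p53, never exceeded 8 counts), and 13 of them (44.8%, against 30.1% of all genes) passed the threshold, 8 higher and 5 lower. The list holds Ddit4, the deleted gene, and without it 12 of 28 passed (42.9%), 8 higher and 4 lower. With Ddit4 their median log2 fold change was 0.18, with values from -2.21 to 5.50, so that the list had no common direction. The strongest increases were those of Gdf15, a stress cytokine of the TGF-beta family, Perp, a membrane protein of desmosomes and apoptosis, and Tnfrsf10b, a death receptor for TRAIL. Gdf15 had 0.475, 0.825 and 1.19 CPM in wild-type and 21.0, 12.7 and 11.6 CPM in knockout libraries (log2 fold change 4.18, edgeR SE 0.49, adjusted p 0.00130). Perp had 4.73, 3.98 and 1.58 CPM in wild-type and 66.7, 265 and 134 CPM in knockout libraries (5.50, edgeR SE 0.67, adjusted p 0.00145), and Tnfrsf10b rose from 0.723 ± 0.341 to 6.60 ± 0.427 CPM (3.19, edgeR SE 0.50, adjusted p 0.00351). All 3 were low in wild type.

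The strongest decreases were those of Gadd45a, a growth arrest and DNA repair protein, and Ddb2, a sensor of UV damage, besides Ddit4. Gadd45a had 91.5, 127 and 166 CPM in wild-type and 27.5, 15.9 and 39.6 CPM in knockout libraries (log2 fold change -2.21, edgeR SE 0.38, adjusted p 0.00518), and Ddb2 went from 26.4 ± 1.74 to 10.3 ± 3.26 CPM (-1.35, edgeR SE 0.29, adjusted p 0.0112). Cdkn1a had 329, 66.5 and 249 CPM in wild-type and 563, 627 and 449 CPM in knockout libraries. Every knockout library lay above every wild-type library, and the change of 1.35 missed the threshold (edgeR SE 0.51, adjusted p 0.0859). Wild-type library 2 was again the low one, and without it Cdkn1a passed (0.92, adjusted p 0.0283), as it did with DESeq2 (1.36, adjusted p 0.0309).

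The apoptosis genes Bax and Bbc3, which encodes PUMA, had changes of -0.60 (edgeR SE 0.34, adjusted p 0.224) and -0.94 (edgeR SE 0.51, adjusted p 0.208) that did not pass. Bbc3 had 164, 34.4 and 156 CPM in wild-type and 55.8, 69.1 and 60.1 CPM in knockout libraries. Without wild-type library 2 its change was -1.38 and passed (adjusted p 0.00314).

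In AE9a-Ddit4-/- library 1, 4 of the 29 other targets (13.8%, against 4.83% of all genes) were more than 2-fold below the other knockout libraries. These were Psrc1, Perp, Gtse1 and Bax, and Psrc1 and Gtse1 are named here because of these values. Psrc1, a spindle protein, had 4.45, 25.5 and 26.2 CPM in the knockout libraries 1, 2 and 3, and Bax had 24.1, 52.3 and 53.8 CPM. Cdkn1a was not low in this library, with a difference of 0.09 on the log2 scale. In wild-type library 2, 3 of 29 other targets (10.3%, against 3.79% of all genes) were more than 2-fold below, namely Bbc3 (-2.20), Cdkn1a (-2.10) and Sesn2 (-1.54), a sestrin that inhibits mTORC1. Wild-type library 3 had as many (10.3%, against 3.92% of all genes), namely Tigar (-1.60), Perp (-1.22) and Fas (-1.04), and wild-type library 1 had 2 (6.9%, against 3.17%). Sesn2, Tigar, a regulator of glycolysis, and Fas, a death receptor, are named because of these values.

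**Figure D4:**
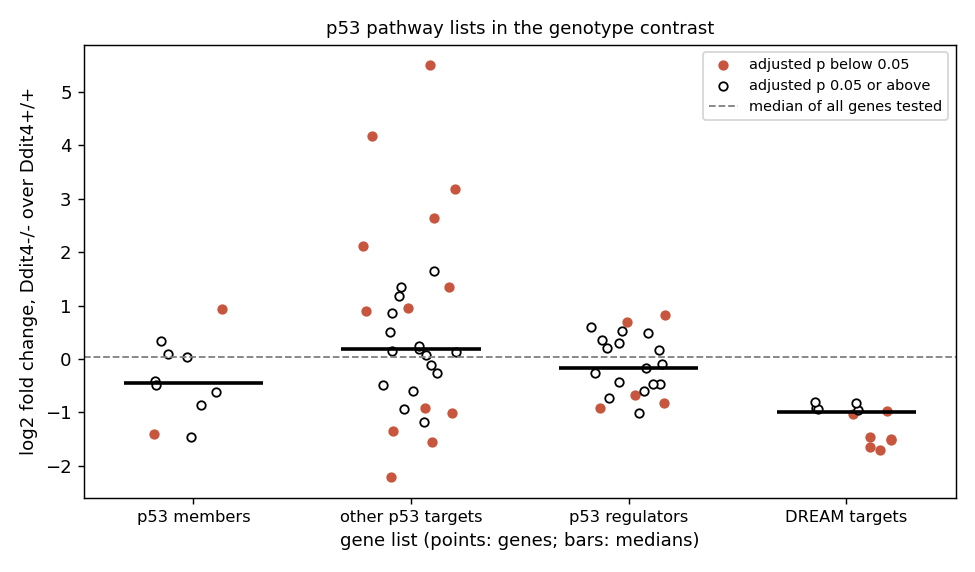
Log2 fold changes, AE9a-Ddit4-/- over AE9a-Ddit4+/+ (y axis), of the genes tested in 4 lists (x axis). Points are genes, filled with an adjusted p below 0.05, bars are list medians, and the dashed line is the median of all genes tested (0.04). Other p53 targets spread from -2.21 to 5.50, and all 12 DREAM targets lie below 0.

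Of 21 regulators of p53, 21 were tested and 5 passed (23.8%, against 30.1% of all genes), 2 higher and 3 lower, with a median of -0.17. Ep300, the acetyltransferase p300, rose by 0.83 (edgeR SE 0.20, adjusted p 0.0178), and Trp53bp1, a protein of DNA breaks that binds p53, rose by 0.70 (edgeR SE 0.18, adjusted p 0.0240). Wrap53, which lies next to Trp53 on the opposite strand, had 51.4, 43.6 and 49.4 CPM in wild-type and 24.0, 24.8 and 27.4 CPM in knockout libraries (log2 fold change -0.92, edgeR SE 0.19, adjusted p 0.00971). Rpl5, a ribosomal protein that binds Mdm2, and Kmt5a, a methyltransferase of histone H4 and p53, fell by 0.67 (edgeR SE 0.16, adjusted p 0.0167) and by 0.83 (edgeR SE 0.20, adjusted p 0.0175). The number of regulators past the threshold ranged from 0 to 8 over the alternatives. It was 2 when wild-type library 1 or 3 was left out, 8 when wild-type library 2 was, and 1 when knockout library 1 was.

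Of 12 genes that p53 lowers through p21 and the DREAM complex, a repressor of cell cycle genes, 7 fell past the threshold (58.3%, against 10.7% of all genes lower) and 0 rose, with a median of -0.999 and values from -1.70 to -0.80. Ccna2, the cyclin of S and G2 phase, had 249, 223 and 220 CPM in wild-type and 39.8, 89.1 and 90.3 CPM in knockout libraries (-1.66, edgeR SE 0.32, adjusted p 0.00810). Ccnb2, a cyclin of mitosis, fell by 1.46 (edgeR SE 0.29, adjusted p 0.00906). Birc5, which encodes survivin, had a log2 fold change of -1.70 (edgeR SE 0.35, adjusted p 0.0102). All 12 were lowest in AE9a-Ddit4-/- library 1, and 10 of 12 (83.3%) were more than 2-fold below the other knockout libraries there, against 4.83% of all genes. Without wild-type library 1, 4 of the 12 passed. These genes are also read as a measure of how many cells divide, which cannot be told apart from repression in bulk RNA.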

How the data were processed

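The authors deposited 1 table of counts per gene (whole numbers, not scaled), with a column for each of 6 libraries and no unused columns of sample values. Their processing notes name GRCm38 (mm10). The aligner, counting tool, annotation and use of strand are not given in the sources used here. The methods and the labels differ on the library kit (ribosomal depletion with strand, or mRNA). Low counts that are multiples of 4 (4, 8, 12) outnumbered 2, 6 and 10 by 1.41 to 1.62 times in every library for a reason that was not tested, and counts divided by 4 were run as an alternative. Limits of detection (12 counts) cover counting error only.

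All genes were fitted in R 4.3.3 with edgeR 4.0.16 (filterByExpr, TMM, robust glmQLFit and glmQLFTest, genotype as the only term), which left 18375 genes. P values were adjusted by the Benjamini-Hochberg method over all of them, with a threshold of 0.05. SE was derived from each log2 fold change and its F statistic. Positions and exon lengths came from GENCODE M21 (GRCm38, 99.5% of identifiers matched) and promoters from RefSeq (GRCm38.p6). Ratios of counts were compared by exact permutation tests. Alternatives were RLE factors, library totals, no mitochondrial genes, other filters, DESeq2 1.42.0, a replicate block and each library left out. The fit was tested on simulated data with 3 libraries per group. It called 2 of 88 genes with a simulated 2-fold change, 33 of 102 with a 4-fold change and 5 unchanged genes. Most changes of 2-fold were thus missed there. The simulation held far fewer changed genes than were called in the data, so these shares cannot be carried over directly. A missed threshold does not show equal levels.

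The members, gene lists and tests were chosen with earlier results of these data known. Named genes are the members, Cdkn1a, Bax, Bbc3, Ddit4, the 3 genes with the smallest adjusted p per direction of each list, the 3 genes most like Trp53 and those said to be named for their values.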

Additional observations from a re-analysis of the deposited data

How the results depend on the processing

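Mdm4, Ddit4 and the number of members higher in knockout (1) kept their side of the threshold in all 14 alternatives. With the replicate block 1 member passed instead of 2, 0 members were lower, 0 regulators and 4 DREAM targets passed, Trp53 lost its call (-1.31, adjusted p 0.117), Eda2r was at -0.31, and 2964 genes passed in all instead of 5535. Deviations of same-numbered libraries from their group means correlated at -0.31, -0.33 and 0.03 over 8218 genes, and those of different-numbered libraries at -0.16 to 0.36. With so few libraries, whose deviations are tied within each group, this cannot show whether the replicate numbers mark a pairing. Eda2r was at -0.034 with library totals alone, and DESeq2 called 8 regulators. When each library was left out in turn, 1 to 2 members passed, 0 to 1 were lower, their median was -0.71 to -0.13, 1 to 8 regulators, 4 to 7 DREAM targets and 11 to 16 other targets passed, and log2 fold changes were -0.070 to 0.20 for Mdm2, -0.80 to 0.064 for Phlda3 and -0.63 to 0.59 for Eda2r. The ratio differences were 1.18 to 1.82 for Mdm2 to Trp53 and -1.04 to -0.70 for Mdm2 to Mdm4. The cause of these changes was not tested. The lowest count of a member was 32 (Eda2r in knockout library 1), above the limit of 12 counts.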

Other observations

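Regulators of p53 also differed within the knockout group. In AE9a-Ddit4-/- library 1, 3 of the 21 regulators were more than 2-fold below the other knockout libraries (14.3%, against 4.83% of all genes), and they are named because of these values. Npm1, the nucleolar protein that stabilizes Arf, had 222, 525 and 596 CPM in the knockout libraries 1, 2 and 3, and Chek1, a checkpoint kinase, had 11.7, 25.6 and 26.2 CPM. Cdkn2a, whose locus encodes the Mdm2 inhibitor Arf and the CDK inhibitor p16, had 2.55, 4.56 and 15.3 CPM in these libraries, so that library 3 stood out as high rather than library 1 as low. In wild type Cdkn2a had 11.5, 4.86 and 3.60 CPM, and its change between the genotypes did not pass (0.17, SE 0.73, edgeR adjusted p 0.878). Counts per gene do not separate its 2 products.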
